A study of Mus musculus with 6 samples.

Results

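The genes described here are 36 cell cycle and DNA replication genes, a list of gene names looked up in the deposited count table. All 36 were found among the 55291 genes of the table, and all 36 were among the 19971 genes that remained after a filter on low counts and were tested. The list was split by role into 14 S phase members, which license and copy DNA, and 22 mitotic members, which condense, align and divide the chromosomes. A dividing cell first makes the S phase transcripts under E2F transcription factors, and then the mitotic transcripts under MuvB complexes, which bind the cell cycle genes homology region, a short promoter element written TTTGAA or TTCGAA that often stands beside CCAAT boxes. In skin, dividing cells sit mainly in the basal layer of the epidermis and in the matrix of growing hair follicles, while the cells above the basal layer have left the cycle. Levels of these transcripts are widely read as a measure of how many cells of a tissue are dividing.

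Bulk RNA of dorsal skin, removed after shaving, was sequenced for 3 mice with the tight skin mutation (TSK) and 3 wild-type littermates (WT), as 1 library per mouse with 17561453 to 19219814 counts per library. All 6 mice were C57BL/6 and 6 to 8 weeks old. The TSK mutation is an intragenic duplication of Fbn1, which encodes the microfibril protein fibrillin 1, and it was kept by backcrossing to C57BL/6, so that linked DNA around Fbn1 can differ between the groups as well. Fbn1 itself lay at 267, 289 and 262 CPM (counts scaled to library totals of 1e+06) in WT 1, 2 and 3 and at 1538, 2284 and 2007 CPM in TSK 1, 2 and 3, which followed the genotype labels. The labels give the sex of all mice as female, but the Y-linked genes Ddx3y, Eif2s3y, Kdm5d and Uty lay between 27 and 72.8 CPM in all 6 libraries and Xist between 2.57 and 4.58 CPM, which differs from the labels. The study's methods give the mice as males, at the upper end of that age range. The keratinocyte genes Krt5 (1245 to 2802 CPM) and Krt14 (498 to 1340 CPM) were present in every library, as were genes of skeletal muscle, which lies beneath the skin and was part of the samples. As whole skin was sequenced, fewer dividing cells and less of a transcript per dividing cell cannot be told apart.

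The promoters of these genes carry the letters by which the S phase and mitotic members are usually told apart, so 5 stretches are shown, each the 200 bases that end 1 base before a RefSeq transcript start (GRCm38.p6). Capitals mark CCAAT or its reverse complement ATTGG, the homology region letters TTTGAA, and the E2F letters TTTCGCGC and TTTGGCGC with their reverse complements. The first 3 belong to mitotic members. Aurka, which encodes a kinase that matures the spindle poles, lies on the minus strand and its stretch is chr2:172370571-172370770. Cdk1, the kinase that drives entry into mitosis, has the minus-strand stretch chr10:69352913-69353112. Mki67, which encodes the proliferation marker Ki-67 that coats mitotic chromosomes, has the minus-strand stretch chr7:135716380-135716579. The other pair belong to S phase members, which encode subunits of the replicative helicase: Mcm5 has the plus-strand stretch chr8:75109309-75109508 and Mcm6 the minus-strand stretch chr1:128359706-128359905.
Aurka: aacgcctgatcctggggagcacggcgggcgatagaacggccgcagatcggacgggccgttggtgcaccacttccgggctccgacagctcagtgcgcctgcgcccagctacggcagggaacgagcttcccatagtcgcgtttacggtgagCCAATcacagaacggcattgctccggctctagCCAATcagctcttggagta
Cdk1: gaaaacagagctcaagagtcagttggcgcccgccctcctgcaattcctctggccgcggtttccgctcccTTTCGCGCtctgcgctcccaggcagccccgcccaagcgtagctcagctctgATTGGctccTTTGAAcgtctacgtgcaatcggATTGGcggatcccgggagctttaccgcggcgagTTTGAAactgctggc
Mki67: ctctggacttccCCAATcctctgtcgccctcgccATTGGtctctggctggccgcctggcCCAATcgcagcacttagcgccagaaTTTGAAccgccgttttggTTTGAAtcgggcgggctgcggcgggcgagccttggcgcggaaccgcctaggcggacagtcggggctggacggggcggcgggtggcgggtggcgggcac
Mcm5: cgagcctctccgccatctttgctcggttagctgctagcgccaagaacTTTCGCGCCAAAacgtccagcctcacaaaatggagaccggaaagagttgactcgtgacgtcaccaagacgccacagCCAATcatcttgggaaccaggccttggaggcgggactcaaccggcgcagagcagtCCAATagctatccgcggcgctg
Mcm6: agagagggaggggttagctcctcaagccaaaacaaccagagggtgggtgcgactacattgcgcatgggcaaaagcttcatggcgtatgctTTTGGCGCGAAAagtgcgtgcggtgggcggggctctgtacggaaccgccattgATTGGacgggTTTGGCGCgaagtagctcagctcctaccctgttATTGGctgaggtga

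Aurka held 2 CCAAT boxes in its stretch, and its TTTGAA began 33 bases after the start, outside the bases shown. Cdk1 and Mki67 each held 2 TTTGAA elements upstream of the start. Mcm5 and Mcm6 held overlapping E2F letters, TTTCGCGC with the reverse complement of TTTGGCGC in Mcm5, and TTTGGCGC with the reverse complement of TTTCGCGC in Mcm6, which held a further TTTGGCGC nearer the start. Across the windows from 250 bases before to 50 bases after each start, 32 promoters were matched for 30 of the 36 members, and 32851 promoters for all genes. Ccna2, Ccne2, Aurkb, Kif20a, Tpx2 and Mcm4 were not matched.

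The homology region letters TTTGAA or TTCGAA, on either strand, lay in 15 of the 19 promoters of mitotic members (78.9%), in 2 of the 13 promoters of S phase members (15.4%) and in 19.2% of all promoters. CCAAT lay in 17 of 19 mitotic promoters (89.5%), 8 of 13 S phase promoters (61.5%) and 37.4% of all promoters. The opposite order held for E2F letters: any of TTTCCCGC, TTTGGCGC, TTTCGCGC and TTTGCCGC lay in 6 of 13 S phase promoters (46.2%), in 1 of 19 mitotic promoters, that of Cdk1 (5.26%), and in 2.26% of all promoters. These matches describe the letters in these windows and not the binding of a factor. The split by letters was not complete: Mcm2 and Mcm7, both S phase members, held homology region letters, and 4 of the 18 mitotic members with a matched promoter held none in the window. Members with homology region letters had a median log2 fold change (TSK minus WT, described below) of -0.47 and those without of -0.18, but 14 of the 16 with them were mitotic, so that letters and role cannot be told apart.

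In TSK against WT skin, none of the 36 members passed an adjusted p of 0.05 in either direction (edgeR's quasi-likelihood test with Benjamini-Hochberg adjustment over 19971 genes). Over all genes tested, 542 genes (2.71%) were higher and 136 genes (0.681%) were lower in TSK at that threshold, 3.39% in all. At an unadjusted p below 0.05, 4 members were lower and 0 were higher, where 7.9% and 12.1% of all genes were. Those 4 were Aurka, Ccnb1, Kif11 and Ccne2, and their adjusted p-values in the edgeR test were 0.0821, 0.178, 0.21 and 0.241. With DESeq2, 1 member passed (Aurka, adjusted p = 0.032), where 2.01% of all genes were called lower and 5.56% higher, and the same single member passed in edgeR without the low-count filter (adjusted p = 0.0396), where 0.997% were called lower and 2.99% higher. Limma-voom called 0 members, where 0.556% of all genes were called lower and 2.17% higher. At an adjusted p below 0.01 with a fold change above 2.5, thresholds that the study states for its own comparison, edgeR called 0 members and 0.29% of all genes.

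The fitted differences of the members nonetheless lay mostly on 1 side of zero. The log2 fold change (TSK minus WT) was below 0 for 34 of 36 members, where it was below 0 for 53% of all genes, and the median member lay at -0.35, where the median gene lay at -0.03. Mitotic members lay lower than S phase members: their median was -0.47 with 22 of 22 below 0 (range -0.98 to -0.07), against -0.15 with 12 of 14 below 0 for S phase members (range -0.47 to 0.25). These genes share cells and libraries and are not independent, so the medians are descriptions and carry no test. Of the fits that left out a library, those without WT 1 and without WT 2 moved the median of all members most. Without WT 1 it was -0.16 (all genes 0.02), and 25 of 36 members were below 0 (48% of all genes). In that fit 1 member (Aurka) was lower at an unadjusted p below 0.05 (10.1% of all genes). Another, E2f1, was higher (log2 fold change 0.46, adjusted p = 0.124 in edgeR), where 24.3% of all genes passed in either direction. Without WT 2 the members' median was -0.52 (all genes -0.01), and 35 of 36 were below 0 (51.3% of all genes). In that fit 17 were lower at an unadjusted p below 0.05 (4.97% of all genes). In both fits 0 members passed the adjusted threshold.

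The choice of scale moved the members and the median gene together. The edgeR fit used trimmed mean of M-values (TMM) scaling, which gave the WT libraries factors between 0.823 and 1.03 and the TSK libraries factors between 1.06 and 1.13, and with library totals alone the median gene moved from -0.03 to 0.25. On that scale the members' median was -0.08 and 25 of 36 were below 0, but 34 of 36 still lay below the median gene.

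**Figure D1:**
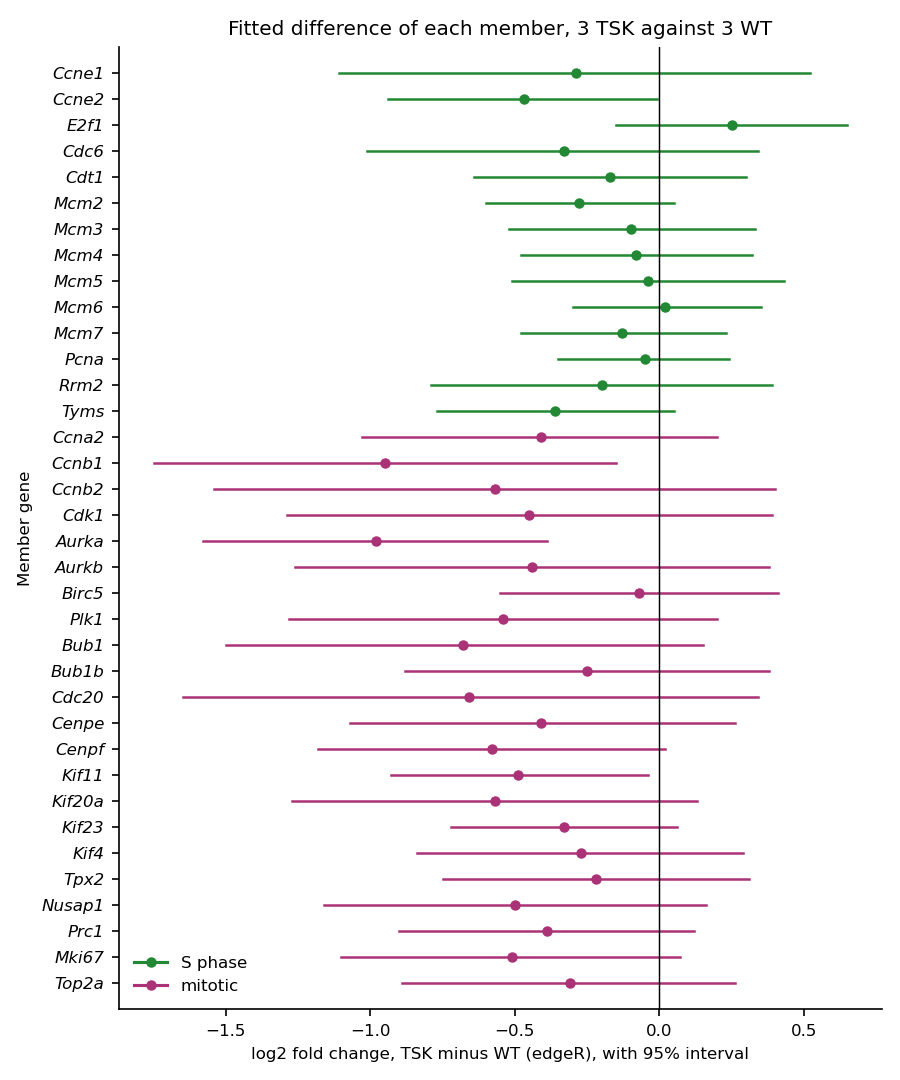
Fitted log2 fold change (TSK minus WT, edgeR) of each member, with its 95% interval; members are in order of role, S phase in green and mitotic in magenta, and the vertical line is no difference. Points of 34 of 36 members lie left of the line, and the intervals of 32 members cross it.

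With TMM scaling, the 95% interval of the log2 fold change included 0 for 32 members and included -1, a halving, for 16. For 0 members did it include 1, a doubling, and the highest upper bound was 0.65, for E2f1. The lowest lower bound was -1.75, for Ccnb1. These bounds moved with the scaling: the upper bound of E2f1 was 1.03 with library totals in edgeR and 0.97 and 1.05 in the limma-trend fits on log2(CPM + 1) and log2(CPM + 0.1), and the intervals that included -1 then numbered 11, 2 and 7. Without WT 2 the interval included 0 for 19 members, and without WT 1 it included -1 for 9. Depth differed widely among members, from 13 counts (Ccne1) to 1444 counts (Mki67) in a library, and 21 members had under 100 counts in at least 1 library.

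Among the G1 to S regulators, which commit a cell to replication, the 5 members had log2 fold changes from -0.47 to 0.25. Ccne2, an E-type cyclin that activates Cdk2 at the start of S phase, lay at 5.64, 3.78 and 3.63 CPM in WT 1, 2 and 3 and at 3.19, 4.21 and 3.87 CPM in TSK 1, 2 and 3. WT 1 stood above the other 5 libraries, which overlapped on this scale, while the groups did not overlap after TMM scaling. Its log2 fold change was -0.47 (SE 0.20, 95% interval -0.94 to -0.01), and its exons overlap those of Ints8 on the other strand, so that reads of the pair can be told apart only if strand was used in counting. Ccne1, the other E-type cyclin, was the lowest member, at 0.854, 0.692 and 1.26 CPM in WT and 0.996, 1.09 and 0.689 CPM in TSK, with the groups interleaved and an interval of -1.11 to 0.52. It rested on 13 to 23 counts a library.

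E2f1, a transcription factor of S phase genes, was the member with the highest log2 fold change, 0.25 (95% interval -0.15 to 0.65, adjusted p = 0.483 in edgeR). It lay at 11.8, 6.77 and 7.22 CPM in WT and at 11.8, 11.4 and 13.4 CPM in TSK, so that WT 1 reached the TSK libraries and WT 2 and 3 lay below them. Cdc6 and Cdt1, which load the helicase onto origins, had log2 fold changes of -0.33 and -0.17, both with intervals that included 0.

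The 6 subunits of the MCM2-7 helicase, which unwinds DNA at the fork, had the median log2 fold change closest to 0 among the role groups (-0.09), with a range from -0.28 (Mcm2) to 0.02 (Mcm6). Mcm2 lay at 18.2, 12.3 and 13.9 CPM in WT and at 16.1, 13.9 and 13.9 CPM in TSK (interval -0.60 to 0.05). Mcm5 lay at 15.4, 8.68 and 8.62 CPM in WT and at 14.4, 12.2 and 11.1 CPM in TSK (interval -0.51 to 0.43). Mcm6 lay at 26.0, 15.7 and 18.0 CPM in WT and at 25.3, 23.0 and 24.2 CPM in TSK (interval -0.30 to 0.35). In all 3 genes WT 1 was the highest library on deposited CPM, and the TSK libraries fell between WT 1 and the lowest WT library. After TMM scaling TSK 2 and TSK 3 lay below every WT library in Mcm2, at 12.5 and 12.3 CPM. Summed over the 6 subunits, the level was 117, 69.5 and 84.7 CPM in WT and 111, 97.9 and 94.5 CPM in TSK, again with the TSK libraries inside the WT range on this scale.

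Among the genes of DNA synthesis and nucleotide supply, Pcna, the sliding clamp of DNA polymerases, lay at 28.0, 19.1 and 22.7 CPM in WT and at 29.0, 26.3 and 25.3 CPM in TSK (log2 fold change -0.05, interval -0.35 to 0.24). The TSK libraries lay near WT 1, and WT 2 and WT 3 lay below them on this scale. Rrm2, a subunit of ribonucleotide reductase, and Tyms, which makes thymidylate, had log2 fold changes of -0.20 and -0.36 with intervals of -0.79 to 0.39 and -0.77 to 0.05.

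Mitotic cyclins and their kinase had log2 fold changes from -0.95 to -0.41, and their summed level varied more in WT (SD 8.02 CPM) than in TSK (SD 0.736 CPM). Ccnb1, the main B-type cyclin, lay at 5.53, 1.81 and 3.75 CPM in WT and at 2.67, 1.67 and 2.46 CPM in TSK. WT 2 fell among the TSK libraries, so that the groups overlapped although the log2 fold change was -0.95 (SE 0.35, interval -1.75 to -0.15). Processed pseudogenes match 51.7% to 52% of its transcript at 97.3% to 99.2% identity and held at most 1.9 counts each in a library, so a split of reads with them is possible but of unknown size. Cdk1 lay at 5.93, 1.66 and 3.60 CPM in WT and at 3.87, 3.21 and 2.54 CPM in TSK, all 3 TSK libraries between WT 2 and WT 1 on this scale (log2 fold change -0.45, interval -1.29 to 0.39). Ccnb2 and Ccna2, further mitotic cyclins, had log2 fold changes of -0.57 and -0.41 with intervals that included 0, and the exons of Ccna2 overlap those of Exosc9 on the other strand.

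Aurka had the lowest p of the list and was the only member whose groups did not overlap on deposited CPM. It lay at 4.10, 4.05 and 5.33 CPM in WT (72, 76 and 97 counts) and at 3.08, 1.98 and 3.23 CPM in TSK (56, 38 and 61 counts), every TSK library below every WT library. On this scale 2.58% of all genes were lower in TSK without overlap, and 29.1% were higher without overlap, among them 0 members. The log2 fold change was -0.98 (SE 0.26, 95% interval -1.58 to -0.39, adjusted p = 0.0821 in edgeR), and over the alternatives it ranged from -1.1 to -0.55 with adjusted p from 0.032 to 0.276. Its deposited counts were whole in all 6 libraries, and no other annotated gene overlapped its exons. Unlike most members, Aurka was not highest in WT 1 but in WT 3.

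The other mitotic kinases and chromosomal passengers overlapped between the groups. Aurkb, the kinase of the chromosomal passenger complex, and Birc5, its survivin subunit, had log2 fold changes of -0.44 and -0.07, and Plk1, a kinase of spindle assembly and cytokinesis, of -0.54; all 3 intervals included 0. Overlap was also seen in the spindle checkpoint and anaphase genes. Bub1 and Bub1b, checkpoint kinases at the kinetochore, had log2 fold changes of -0.68 and -0.25, and Cdc20, the activator of the anaphase-promoting complex, of -0.66. Cdc20 showed the widest WT spread of the list: it lay at 5.13, 1.06 and 3.46 CPM in WT, a ratio of 4.81 between WT 1 and WT 2, and at 2.64, 1.82 and 2.70 CPM in TSK.

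Of the kinetochore pair, Cenpf, a large protein of the outer kinetochore, lay at 21.3, 8.52 and 13.2 CPM in WT and at 13.4, 9.16 and 11.2 CPM in TSK (log2 fold change -0.58, interval -1.18 to 0.02), and Cenpe, a kinetochore motor, had a log2 fold change of -0.41. Among the kinesin motors, Kif11, which pushes the spindle poles apart, lay at 13.5, 6.70 and 9.40 CPM in WT and at 8.48, 7.83 and 8.81 CPM in TSK. The TSK values were close together and lay between WT 2 and WT 3 on deposited CPM, but below all WT values after TMM scaling, at 7.98, 7.06 and 7.81 against 13.2, 8.16 and 10.6. Its log2 fold change was -0.49 (SE 0.20, interval -0.93 to -0.04). Kif20a, Kif23 and Kif4, motors of the central spindle and chromosome arms, had log2 fold changes of -0.57, -0.33 and -0.27, and the spindle proteins Tpx2, Nusap1 and Prc1 of -0.22, -0.50 and -0.39, all with intervals that included 0. Kif20a, Kif4, Nusap1 and Prc1 overlap exons of Cdc23, Pdzd11, Oip5 and Rccd1 on the other strand. Such overlaps were also found for Mcm7 (Ap4m1 and Cops6), Plk1 (Gm44985) and Cdc20 (Elovl1). On the same strand, exons of Mcm7 overlap Mir25 and Mir93, and those of Top2a overlap Gm23451. After TMM scaling 3 members (Aurka, Ccne2 and Kif11) did not overlap and were lower in TSK, where 10.6% of all genes did so, and 0 members did so in the other direction, where 14.1% of all genes did.

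Mki67 and Top2a, the topoisomerase that untangles sister chromosomes, were the most abundant mitotic members. Mki67 lay at 82.2, 30.9 and 46.6 CPM in WT and at 48.3, 37.9 and 45.0 CPM in TSK. Top2a lay at 42.9, 16.9 and 29.0 CPM in WT and at 31.6, 22.6 and 30.1 CPM in TSK. In both genes all 3 TSK libraries fell between WT 2 and WT 1 on deposited CPM, while after TMM scaling TSK 2 lay below WT 2 (34.1 against 37.6 for Mki67 and 20.3 against 20.6 for Top2a). On deposited CPM the WT mice differed from each other more than the group means did, which were 53.2 ± 26.3 and 43.7 ± 5.29 CPM for Mki67 (SD, n = 3). The log2 fold changes were -0.51 for Mki67 (interval -1.10 to 0.07) and -0.31 for Top2a (interval -0.89 to 0.26).

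WT 1 was the highest of the 6 libraries in 30 of 36 members (83.3%), where it was highest in 17% of all genes tested, and WT 2 the lowest in 28 (77.8%), where it was lowest in 45.9%. All 3 TSK libraries lay between the lowest and the highest WT library in 26 members (72.2%), against 14.2% of all genes. The median SD of log2 CPM over members was 0.603 in WT and 0.212 in TSK, while over all genes it was 0.279 and 0.235, and the WT spread was the wider in 35 of 36 members (97.2%, against 57.4% of all genes). After TMM scaling WT 1 was highest in 28 members (77.8%, against 18.3% of all genes), but WT 2 was lowest in only 12 (33.3%, against 19.8%) and TSK 2 was lowest in 15 (41.7%, against 18.3%), 14 of them mitotic. On that scale all TSK libraries lay within the WT range in 13 members (36.1%, against 14.4%), and the median SDs were 0.447 in WT and 0.235 in TSK. These counts were chosen after the values were seen, and members of a shared programme move together, so they are no test of a difference in spread between genotypes.

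**Figure D2:**
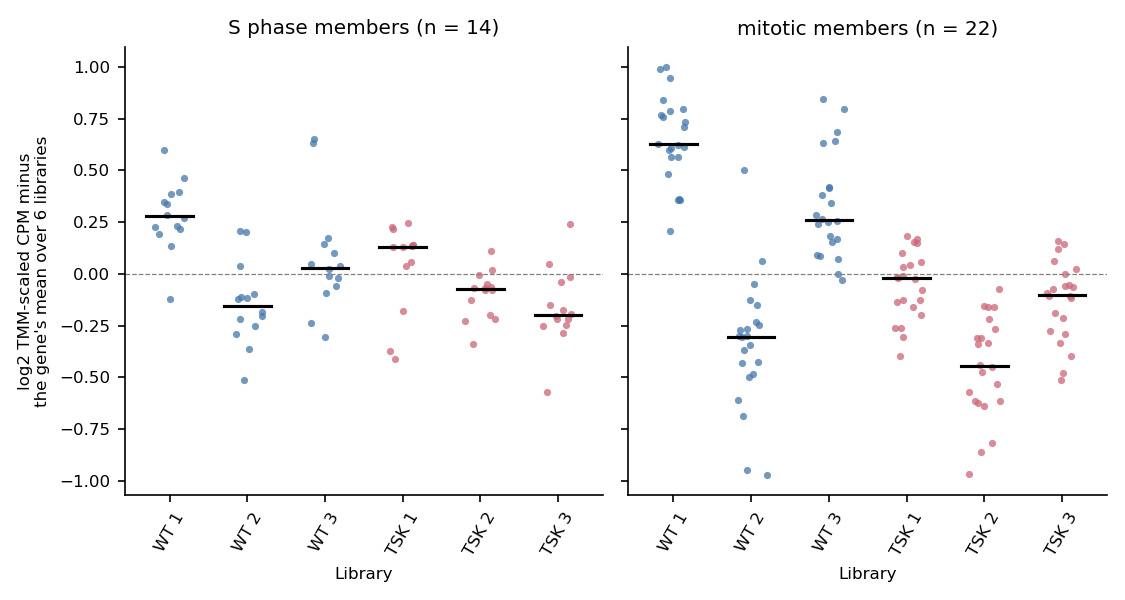
Each point is a member's log2 TMM-scaled CPM in a library minus that member's mean over the 6 libraries (vertical axis), by library (horizontal axis), for S phase members (left) and mitotic members (right); black bars are medians. The medians are highest in WT 1 in both panels, and mitotic members spread wider among the WT libraries than S phase members.

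Mitotic members varied more among WT mice than S phase members did. The summed mitotic level was 285, 118 and 186 CPM in WT and 184, 147 and 181 CPM in TSK, and the summed S phase level was 199, 120 and 144 CPM in WT and 183, 166 and 165 CPM in TSK. The groups overlapped in both sums. The mean mitotic sum was 196 ± 84.3 CPM in WT and 171 ± 20.5 CPM in TSK, a ratio of 0.87, and the mean S phase sum was 154 ± 40.7 and 171 ± 9.96 CPM, a ratio of 1.11 (SD, n = 3). After TMM scaling the ratios were 0.738 and 0.931, so that the direction for S phase depended on the scale. Within a library, where scaling cancels, the mitotic sum over the S phase sum was 1.43, 0.983 and 1.30 in WT and 1.01, 0.888 and 1.10 in TSK. WT 2 fell among the TSK libraries in that ratio, and WT 1 and WT 3 lay above them.

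Compared per length, as CPM per kilobase of annotated exon, the median S phase member stood above the median mitotic member in every library, though single members of the groups overlapped. The median S phase member lay at 3.71, 2.02 and 2.22 CPM per kilobase in WT and at 3.64, 2.97 and 2.80 in TSK, while the median mitotic member lay at 1.69, 0.640 and 1.13 in WT and at 0.998, 0.929 and 1.27 in TSK. Pcna was the highest member, at 9.69 ± 1.86 CPM per kilobase in WT and 11.2 ± 0.797 in TSK. Mki67 was the next in WT at 5.29 ± 2.61, and its SD spanned the levels of Mcm7 (4.37 ± 1.10), Mcm6 (4.27 ± 1.16) and Mcm4 (3.97 ± 1.26), which did not differ from each other beyond their spread. In TSK, Mcm6 (5.18 ± 0.247) stood in that place and Mki67 lay at 4.35 ± 0.526. Ccne1 was lowest in both groups (0.352 ± 0.111 and 0.348 ± 0.0791), and the subunits of the MCM2-7 helicase, which assemble in equal number, spanned 2.13 (Mcm2) to 4.37 CPM per kilobase (Mcm7) in WT. These lengths join the exons of all annotated transcripts of a gene and can exceed the transcript present. The order of members was not tested with other lengths. A processed pseudogene matches 72.8% of the Mcm7 transcript at 97.7% identity and held at most 1.6 counts in a library. Another matches 51.4% of the Pcna transcript at 99.2% identity and held at most 13.1 counts, so a split of reads is possible for both.

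**Figure D3:**
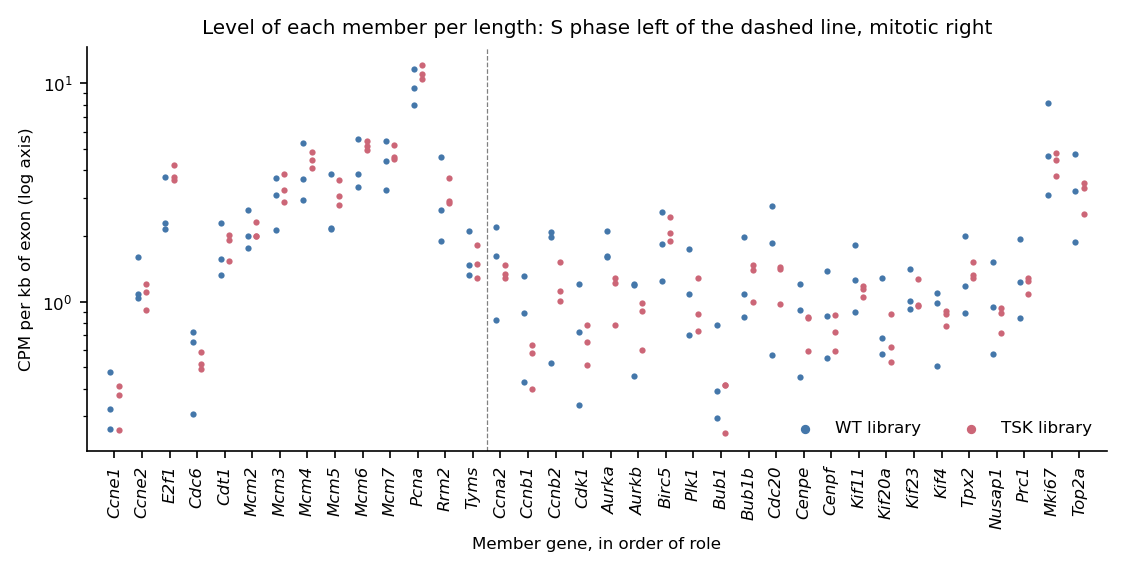
Level of each member as CPM per kilobase of exon (log axis) in each WT library (blue) and TSK library (red), with S phase members left of the dashed line and mitotic members right of it. Pcna is the highest member in both groups and Ccne1 is among the lowest, and WT points spread wider than TSK points in 35 of 36 members.

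Markers of the cell types that divide in skin, and of others in the samples, were read beside these values. The 9 basal keratinocyte markers, from the layer that holds most dividing epidermal cells, summed to 10283, 6171 and 6706 CPM in WT and 8258, 5893 and 5766 CPM in TSK. WT 1 was the highest library and WT 2 was the lowest WT library there too, as for the members; 0 of 9 markers passed the test and 9 of 9 were fitted below 0 (median log2 fold change -0.45), with 3 lower at an unadjusted p below 0.05. Differentiated keratinocyte markers, from cells that have stopped dividing, summed to 1702 to 2688 CPM in WT and 3002 to 5078 CPM in TSK, and 3 of 10 rose. Of the 12 hair matrix and hair shaft markers tested, 5 rose, and the list summed to 40.1 to 81.2 CPM in WT and 101 to 104 CPM in TSK. Fibroblast markers summed to 6419 to 9736 CPM in WT and to 21011, 20587 and 47608 CPM in TSK 1, 2 and 3. Of these 10 markers, 2 rose in the edgeR test. Adult skeletal muscle markers, from tissue that does not divide, summed to 146030, 211169 and 200200 CPM in WT and 125626 to 142751 CPM in TSK. Of these 11 markers, 0 passed the edgeR test and 8 were lower at an unadjusted p below 0.05. WT 2, the library lowest in 28 members on deposited CPM and in 12 after TMM scaling, was the highest in muscle on both scales. Markers of developing muscle summed to 318 to 540 CPM in WT and 101 to 168 CPM in TSK, and 7 of the 9 tested fell. Macrophage markers summed to 238 to 375 CPM in WT and to 443, 617 and 1234 CPM in TSK 1, 2 and 3. Of these 9 markers, 0 passed the edgeR test and 7 were higher at an unadjusted p below 0.05. Sebaceous gland markers summed to 172 to 457 CPM in WT and to 876, 6437 and 603 CPM in TSK 1, 2 and 3. Of these 7 markers, 0 passed the edgeR test and 2 were higher at an unadjusted p below 0.05. Over all genes tested, 2.71% rose and 0.681% fell in the edgeR test. At an unadjusted p below 0.05, 12.1% of all genes were higher and 7.9% were lower. No gene of the marker lists was at 0 in every library. The part of these shifts in the members' values was not tested.

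**Figure D4:**
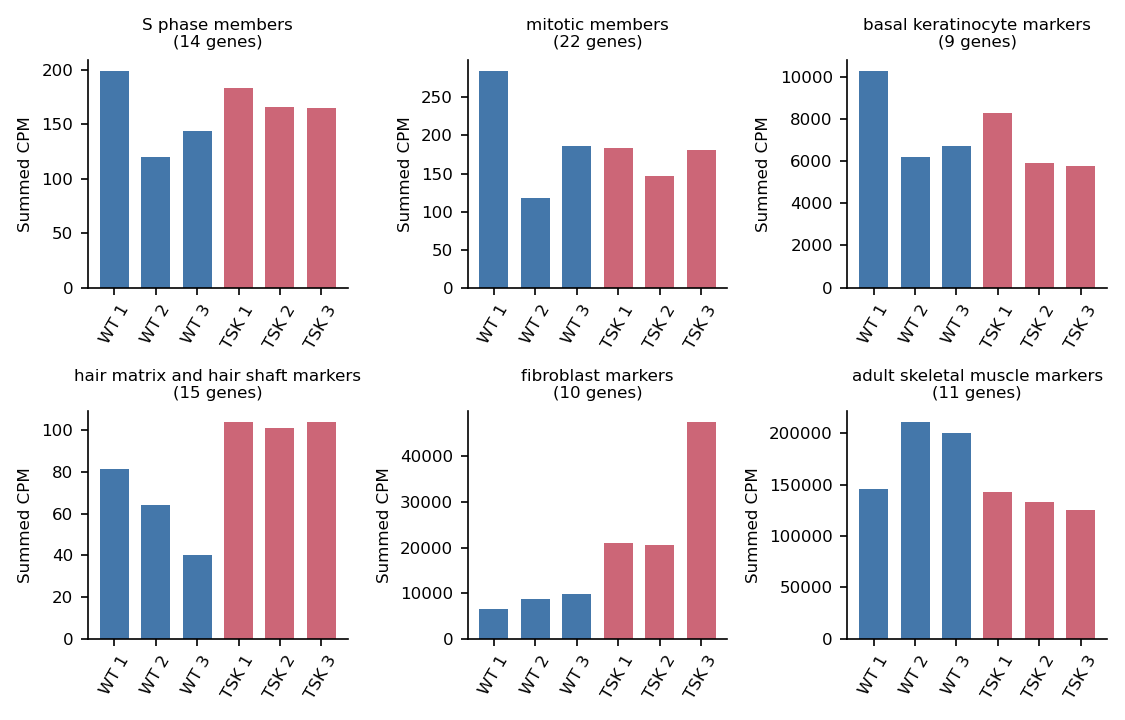
Summed CPM per library (bars, each axis from 0) of the S phase members, the mitotic members and 4 marker lists, with WT libraries in blue and TSK libraries in red. The S phase, mitotic and basal keratinocyte sums are highest in WT 1, while the adult skeletal muscle sum is highest in WT 2.

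Beyond the members, of 141 further genes in 4 lists of the cell cycle pathway, 140 were tested, and 1 rose and 1 fell in TSK by edgeR, where 2.71% of all genes rose and 0.681% fell. Their median log2 fold change was -0.15, with 102 of 140 below 0, where the median gene lay at -0.03 and 53% of all genes were below 0. Of 42 other replication genes (origin recognition, polymerases, clamp loaders) and 50 other mitotic genes (kinetochore, condensin, cytokinesis), 0 passed the edgeR test, with medians of -0.18 and -0.28, and at an unadjusted p below 0.05 there were 2 and 3, all lower in TSK, where 7.9% of all genes were lower. WT 1 was the highest library on deposited CPM in 38 of the 50 mitotic genes (76%) and in 21 of the 42 replication genes (50%), where it was highest in 17% of all genes. The median SD of log2 TMM-scaled CPM in WT was 0.386 over the mitotic genes and 0.22 over the replication genes, against 0.235 over all genes.

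Upstream of the cycle, the 28 G1 cyclins, kinases, E2F and pocket proteins showed a median of -0.10 for the log2 fold change and 0 passed the edgeR test, with 4 at an unadjusted p below 0.05 (2 lower and 2 higher, where 20% of all genes passed in either direction). The D-type cyclins, which couple growth signals to the cycle, lay at 0.06 (Ccnd1), 0.28 (Ccnd2) and 0.53 (Ccnd3). Ccnd3 lay at 31.2, 22.5 and 25.3 CPM in WT and at 37.7, 49.2 and 50.6 CPM in TSK, without overlap, with an adjusted p of 0.0667 in edgeR that passed in 4 of the alternatives. On deposited CPM 29.1% of all genes were higher in TSK without overlap. Myc, a driver of growth and division, lay at -0.36 (interval -0.73 to 0.02).

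Among the inhibitors and brakes, of which 20 of 21 were tested, Gadd45a fell and Mxd1 rose. Gadd45a, a stress-induced gene that holds cells at the passage into mitosis, lay at 17.9, 9.05 and 18.3 CPM in WT and at 8.19, 7.23 and 8.64 CPM in TSK, with no overlap although WT 2 lay near the TSK libraries (log2 fold change -1.17, SE 0.23, adjusted p = 0.0337 in edgeR). Mxd1, a repressor that opposes Myc in differentiating cells, lay at 19.4, 13.4 and 14.5 CPM in WT and at 35.8, 28.0 and 30.6 CPM in TSK, again with no overlap (log2 fold change 0.73, SE 0.15, adjusted p = 0.035 in edgeR). Without overlap on this scale, 2.58% of all genes were lower in TSK and 29.1% were higher. In edgeR the call on Gadd45a was lost without WT 1, WT 3, TSK 1, TSK 2 or TSK 3 (adjusted p from 0.0527 to 0.141), and that on Mxd1 without WT 2, WT 3, TSK 1 or TSK 3 (adjusted p from 0.0672 to 0.161). The call on Gadd45a was also lost with library totals in edgeR (adjusted p = 0.0608), in limma-voom (0.0505) and in the limma-trend fits (0.0797 and 0.0786), and that on Mxd1 with upper quartile scaling in edgeR (0.0505). The classical inhibitors of cyclin-dependent kinases did not differ beyond their spread: the log2 fold changes were -0.01 for Cdkn1a (interval -0.43 to 0.41), -0.05 for Cdkn1b (interval -0.40 to 0.30) and -0.14 for Cdkn1c (interval -0.50 to 0.21).

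The 36 members lie on 17 chromosomes, and 7 of them share chromosome 2 with Fbn1. Within 10 Mb of Fbn1 lie Bub1 (2.29 Mb away), Nusap1 (5.65 Mb), Bub1b (6.66 Mb) and Pcna (6.74 Mb), where DNA carried along with the TSK allele would be most likely. Their log2 fold changes were -0.68, -0.50, -0.25 and -0.05, which fell within the range of the other members. Aurka is 46.8 Mb away (mm10, chr2:172356190-172370535, minus strand).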

How the data were processed

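RNA from dorsal skin of 3 TSK and 3 WT mice was depleted of ribosomal RNA, made into stranded libraries and sequenced as single-end reads. The submitters' processing notes name bcl2fastq 2.19.1.403, STAR, Partek 11.0 and the mm10 build. The authors deposited estimated counts per gene, of which 43.3% to 45.4% of the non-zero values in a library were whole (within 0.001), and a table of CPM made by the authors by scaling the counts to library totals. Since the design assumed raw counts, the estimated counts were rounded to whole numbers before testing. Of the members, 10 had whole counts in every library and 15 in none. The strand setting of the counting is not given in the sources used here. Every column of values belonged to a labelled mouse.

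EdgeR 4.0.16 (R 4.3.3) was run on all 19971 genes kept by filterByExpr, with TMM scaling, the quasi-likelihood test and Benjamini-Hochberg adjustment. The test was tried on simulated counts with known changes and the same dispersion for every gene. At an adjusted p below 0.05 edgeR recovered 56 of 100 simulated 2-fold changes and 98 of 98 simulated 4-fold changes. It made 7 false calls among 19800 unchanged genes. Levels are deposited CPM per library, with means ± SD. The SE of a log2 fold change was taken from its F statistic. Lengths are the union of annotated exons in GENCODE M21, which holds the deposited gene starts and ends of all 36 members. Exon overlaps were read from that annotation and copies were sought with BLAST 2.17.0 (at least 95% identity over 100 bases). Motifs were searched on both strands of RefSeq promoters (GRCm38.p6). Alternatives used DESeq2 1.42.0, limma 3.58.1, other scalings and filters, a block on replicate number, and fits without each library in turn.

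Values per library are given by rule for the 6 members of lowest p and for Mki67, Top2a, Cdk1, Mcm2, Mcm5, Pcna and Ccne1; those of E2f1, Mcm6 and Cdc20 were added after their values were seen. The members, the pathway lists and the marker lists were chosen with earlier results of these data known. Each library is a separate mouse, so p-values measure the spread between 3 mice a group, and an exact permutation test of a single value could not go below p = 0.1. No libraries of a group agreed within sampling noise (lowest chi-square per degree of freedom 8.02). Replicate numbers were not taken to pair mice. The labels give no sequencing batch.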

Additional observations from a re-analysis of the deposited data

How the results depend on the processing

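Of 611 values of single members under 17 alternatives, 555 kept their direction and side of the threshold, 2 gained a call (Aurka, lower, in DESeq2 and without the low-count filter), and 54 uncalled values of 16 members changed sign, of which 9 arose with library totals in edgeR, 13 with limma-trend on log2(CPM + 1), 15 with limma-trend on log2(CPM + 0.1) and 9 without WT 1. Members called lower numbered 1 with DESeq2 and 1 without the filter, and 0 in every other setting run. Members called higher, and members past the stricter thresholds, numbered 0 in all settings. Without single libraries the members' median log2 fold change ranged from -0.52 to -0.16, and it was -0.06 in both limma-trend fits, where the median gene lay at 0.2 and 0.25.

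Pathway genes called higher (1, Mxd1) numbered 3 with library totals, 3 with DESeq2, 3 in each limma-trend fit (Ccnd3, Mxd1 and Mxd4) and 0 with upper quartile scaling, and 0 to 2 without single libraries. Pathway genes called lower (1, Gadd45a) numbered 2 with DESeq2 (Ccng1 and Gadd45a) and 0 with library totals, limma-voom and both limma-trend fits, and 0 to 1 without single libraries (Gadd45a without WT 2 and Ccng1 in its place without WT 1). The cause was not tested. Promoters with at least 2 CCAAT matches made up 43.8% of the members' promoters, against 11.7% of all promoters.

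Deviations of same-numbered libraries from their group means correlated at 0.0112, 0.167 and -0.0938 for numbers 1, 2 and 3, where the highest correlation of each WT library with a TSK library of another number was 0.18, -0.0616 and 0.0599. Only number 2 correlated best with its own, so the numbers were not taken to pair mice. A replicate block on them called 0 members in either direction, with a median of -0.34, 6 members at an unadjusted p below 0.05, all lower (7.04% of all genes), and an adjusted p of 0.0911 for Aurka. It left both pathway counts at 1. Counts were under 100 in at least 1 library for 21 of 36 members, and 16 intervals included a log2 fold change of -1; counting error and the spread between mice were not separated.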
